A study of Mus musculus with 6 samples.

Results

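The neuropeptide genes Npy, Sst, Cort and Cck and their receptor genes Npy1r, Npy2r, Sstr1, Sstr2, Sstr3 and Cckbr were examined in brain tissue of mice with high or low sexual motivation. The 10 genes were chosen by name as interneuron peptides and their receptors, and all 10 are among the 13170 genes of the deposited expression table. The table holds 6 RNA sequencing libraries, 3 from mice labelled as a high and 3 from mice labelled as a low sexual motivation group. All mice are labelled C57, and the title of the series speaks of adult males and of NRG1-ErbB4 signalling. No treatment, transgene or exact age is given in the labels, nor how motivation was scored or whether animals were pooled. The tissue is named in different ways: the medial amygdala stands in the series title, PrL in the extraction text, and only brain in the tissue label. Because nothing states that the libraries came from separate animals, the p-values below take account of library-to-library spread alone, and that spread may be technical.

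Neuropeptides are cut from larger precursors in secretory granules and act on G-protein-coupled receptors, more slowly and over a wider range than GABA or glutamate. In the forebrain, NPY and somatostatin are made mainly by partly overlapping sets of GABA neurons, and their receptors couple to Gi/o proteins, which lower cAMP and open potassium channels. Cholecystokinin is made by a class of GABA interneurons and also by many glutamate neurons, and its main brain receptor, CCK-B, couples to Gq. In the amygdala these peptides are known for effects on anxiety, feeding and social behaviour.

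Values are FPKM, fragment counts scaled by gene length and by library depth. Comparisons of levels between genes thus depend on the length used, which for these genes is the union of their exons. For Cck this was 1305 bases, against 799 in its longest protein-coding transcript, whereas for Sst both were 721. With the shorter length Cck would stand closer to Sst. The whole fragment counts behind the FPKM could be recovered, as set out in the methods, and gave depths of 13610000 to 19005000 fragments per library (to the nearest 1000), with high library 2 the deepest. Correlations of log2 values between libraries were 0.981 to 0.992. The first principal component (38.5% of the variance) set low libraries 3 and 1 apart, with scores of 19.6 and 9.27 against −11.8 to −2.81 in the others. The second (25.5%) set high library 2 apart, with a score of −20.2 against 2.28 to 5.43 in the others. Low libraries 1 and 3 carried choroid plexus RNA, with the summed level of 8 marker genes at 1332 and 4152 FPKM, where the other libraries had 41.1 to 111. In bulk tissue, fewer cells of a type and less RNA per cell cannot be told apart.

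Somatostatin was the most abundant of these transcripts by FPKM, and none of the 10 genes passed the test between the groups after correction over all genes. Ordered by mean FPKM over the 6 libraries, Sst (390.1) stood above Cck (134), Npy (87.3), Sstr2 (26.4), Cckbr (19.4), Npy2r (9.13), Sstr1 (8.07), Sstr3 (7.60), Npy1r (6.51) and Cort (3.08). The ranges of neighbouring genes did not overlap for the steps from Sst down to Npy2r and from Npy1r to Cort. The levels of Npy2r, Sstr1, Sstr3 and Npy1r overlapped between neighbours: Npy2r exceeded Sstr1 in 4 of 6 libraries, and Sstr1 exceeded Sstr3 in 5 of 6. The level of Sst lay at percentile 99.7 of all genes in the table, and that of Cort at percentile 30.1.

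**Figure D1:**
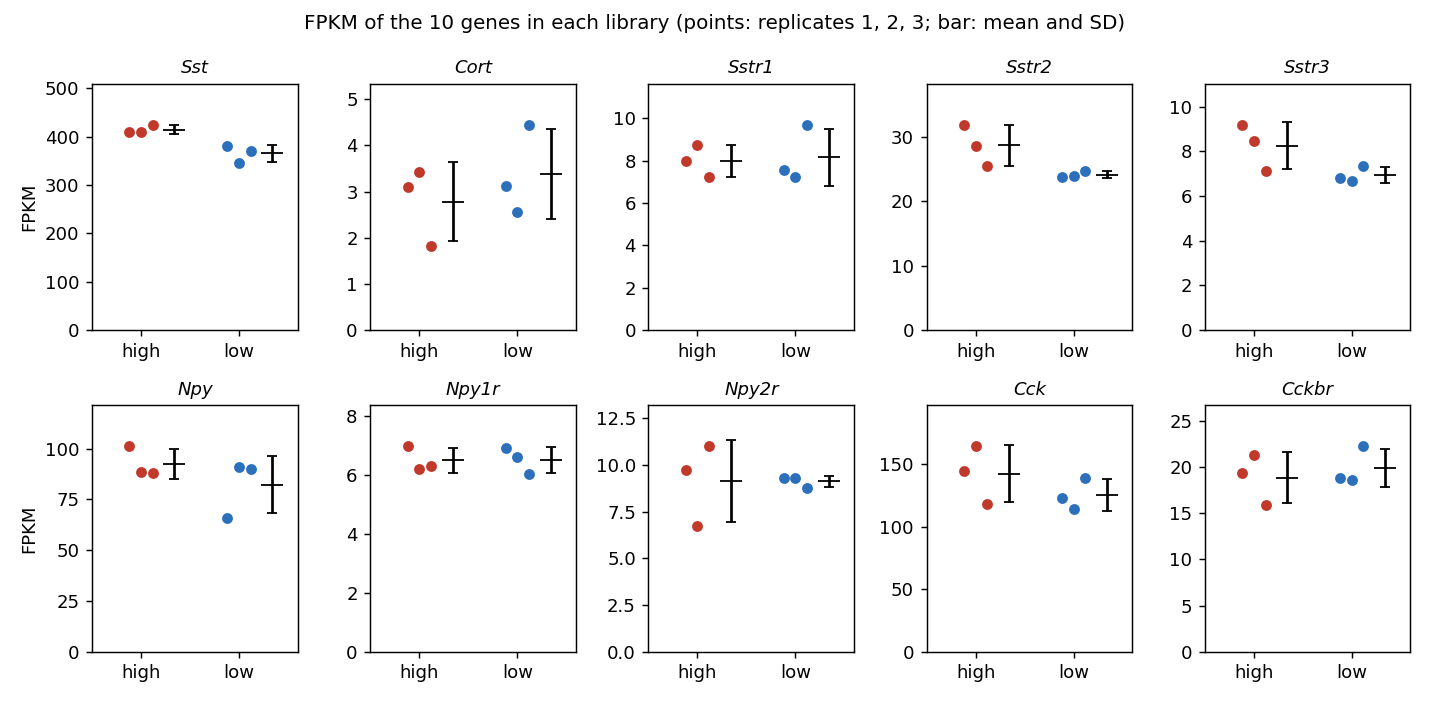
FPKM (vertical axes, each starting at 0) of the 10 genes in the 3 high (red) and 3 low (blue) libraries, with points in the order of replicates 1 to 3 and a black bar for the mean and SD of each group. The points of the groups are separate for Sst and Sstr2 and overlap for the other 8 genes.

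Of the 10 genes, limma called 0 at an adjusted p under 0.05, as it did for all 12026 genes tested (0% called). At an unadjusted p under 0.05 there were 3 members, Sst, Sstr2 and Sstr3, all with a higher mean in the high group. Over all tested genes 8.39% had such a p, and 4.12% had it with a higher mean in the high group. The groups did not overlap in 2 members, Sst and Sstr2, against 14.9% of all tested genes. With 10 members chosen by name, these shares are a description. Of the 10 members 5 had a higher mean log2 value in the high group, against 50.1% of all tested genes. The median difference on the log2(FPKM + 1) scale was 0.085 over the members and 0.00018 over all tested genes.

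Sst, on chromosome 16 from 23889573 to 23890958 in GRCm38, encodes the precursor of somatostatin, a peptide that inhibits the release of other transmitters and hormones. Its level was 409, 410.4 and 425 FPKM in high libraries 1 to 3 and 381, 345 and 369.8 FPKM in low libraries 1 to 3. Every high library lay above every low library, with group means of 415 ± 8.69 and 365 ± 18.2 (SD, n = 3 each), a ratio of 1.14. These levels rest on 3629 to 5624 fragments per library, so that counting error (1.51% of the level) was below the spread between libraries, 2.09% for the high and 4.98% for the low group. The difference on the log2(FPKM + 1) scale was 0.18 (SE 0.0719, 95% interval 0.018 to 0.35), with a limma adjusted p of 0.582 and an unadjusted p of 0.0336. The exact 2-sided permutation p was 0.1, the smallest that 3 against 3 libraries can give. The unadjusted limma p for Sst was 0.123 without low library 2 (difference 0.14), 0.0841 with the replicate number as a block, and 0.157 with a trend on GC content and length removed (difference 0.11). Leaving out high library 1, high library 3 or low library 3 gave an unadjusted limma p of 0.0742, 0.0693 and 0.0690. Without high library 2 or low library 1 this p was 0.0317 and 0.0456.

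Cort encodes the precursor of cortistatin, a close relative of somatostatin that binds the same receptors. The 2 genes are shown here over the stretch in which they resemble each other, the last 14 codons of Sst, which encode somatostatin-14, and the best matching 42 bases of Cort, which end 3 bases before its stop codon. Capitals mark the bases that differ.
Sst: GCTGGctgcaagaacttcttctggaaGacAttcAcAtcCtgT
Cort: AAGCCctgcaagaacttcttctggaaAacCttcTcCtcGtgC
The stretches were identical at 31 of 42 bases (73.8%), and the longest run shared by the GENCODE transcripts of the 2 genes was 21 bases. Cort measured 3.11, 3.42 and 1.82 FPKM across high libraries 1 to 3, against 3.13, 2.57 and 4.45 FPKM across low libraries 1 to 3. The groups overlapped, with the lowest value in high library 3 and the highest in low library 3. Only 19 to 44 fragments per library stood behind these values, so that counting error alone came to 17.6% of the level, where the spread between libraries was 30.5% for the high and 28.6% for the low group. The difference was −0.22 (SE 0.204, 95% interval −0.69 to 0.25; limma adjusted p = 0.767). Leaving out high library 3 brought the Cort difference to −0.02, and leaving out low library 3 to −0.05. It was −0.34 when high library 2 was left out and −0.35 when low library 2 was. Cort made up 0.67 ± 0.21% of the sum of Sst and Cort FPKM among high libraries, against 0.91 ± 0.24% among low libraries (SD, n = 3 each).

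Sstr2 and Sstr3, which encode Gi/o-coupled somatostatin receptors, had higher means in the high group and followed each other from library to library. Sstr2, the most abundant of the family, measured 31.9, 28.7 and 25.5 FPKM across high libraries 1 to 3, against 23.8, 24.0 and 24.7 FPKM across low libraries 1 to 3. The groups were separate, although high library 3 lay only just above low library 3. The difference was 0.23 (SE 0.0840, 95% interval 0.040 to 0.43), with a limma adjusted p of 0.575, an unadjusted p of 0.0241 and an exact permutation p of 0.1. Sstr3, a receptor known for its place in neuronal primary cilia, measured 9.20, 8.45 and 7.13 FPKM across high libraries 1 to 3, against 6.82, 6.67 and 7.33 FPKM across low libraries 1 to 3. Here high library 3 fell inside the range of the low group. The Sstr3 difference was 0.22 (SE 0.0936, 95% interval 0.00054 to 0.43), with a limma adjusted p of 0.596 and an unadjusted p of 0.0496. Without high library 1 the difference was 0.16 for Sstr2 and 0.14 for Sstr3, and without high library 3 it was 0.31 for each. Across the 6 libraries the log2 values of Sstr2 and Sstr3 had a Pearson r of 0.98, the highest of the 45 pairs of members; the 6 points share their libraries and include both groups.

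Sstr2, on chromosome 11 from 113619342 to 113626028, lies entirely inside Slc39a11, a gene on the opposite strand. Slc39a11 had 4.54 ± 0.483 against 4.31 ± 0.493 FPKM (SD, n = 3 each), with overlapping groups. The sources used here do not say if fragments were assigned by strand. The longest run of bases shared between receptor transcripts was 41, between Sstr3 and Sstr5, and 23 or fewer between the other pairs of the family.

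Of the 9 members with an entry among the RefSeq promoters (GRCm38.p6), 2, Sst and Sstr2, hold TGACGTCA, the cAMP response element bound by CREB. The promoters span 250 bases before to 50 after the start site, and Sstr1 had no entry. The 60-base windows around the element are shown with those of Cck, Sstr3 and Cort, which hold only its 5-base part TGACG, or CGTCA on the other strand. All are written 5′ to 3′ along the gene, with the matches in capitals.
Sst: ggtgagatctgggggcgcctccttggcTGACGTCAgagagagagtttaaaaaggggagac
Sstr2: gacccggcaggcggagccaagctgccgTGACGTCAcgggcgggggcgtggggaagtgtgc
Cck: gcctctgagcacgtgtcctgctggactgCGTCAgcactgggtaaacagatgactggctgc
Sstr3: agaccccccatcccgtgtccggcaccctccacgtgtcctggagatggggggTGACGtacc
Cort: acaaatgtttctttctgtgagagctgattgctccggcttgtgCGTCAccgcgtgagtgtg
The windows lie at chr16:23890860-23890919 (minus strand) for Sst, chr11:113619242-113619301 (plus strand) for Sstr2, chr9:121495710-121495769 (minus strand) for Cck, chr15:78544346-78544405 (minus strand) for Sstr3 and chr4:149126764-149126823 (minus strand) for Cort. The element begins 48 bases before the RefSeq start of Sst and 58 bases before that of Sstr2. The GENCODE model of Sst reaches further upstream, to base 23890958, and that of Sstr3 to base 78544685. The windows of Sst and Sstr3 thus lie inside these gene models. A second RefSeq promoter of Sstr3 holds no TGACG on either strand.

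TGACGTCA, which reads the same on both strands, was present in 588 of 32851 RefSeq promoters (1.79%), or in a promoter of 549 of 27025 genes (2.03%). TGACG on either strand, which every TGACGTCA contains, was present in 20.8% of the promoters, for 23.0% of the genes, and in 5 of the 9 members. The E-box CACGTG was found in Sstr3, Cck and Cckbr and in 7.15% of all promoters, or for 8.09% of the genes. Of the 341 tested genes with TGACGTCA in a promoter, 187 (54.8%) had a higher mean in the high group, with a median difference of 0.0094, and the groups were separate in 14.1% of them. Over the 9413 tested genes with a promoter entry, 50.4% had a higher mean and 14.7% had separate groups. A match is a description of these letters and not of a bound site.

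The remaining somatostatin receptors showed no separation of the groups. Sstr1 measured 7.98, 8.72 and 7.25 FPKM across high libraries 1 to 3, against 7.56, 7.21 and 9.70 FPKM across low libraries 1 to 3. Its difference was −0.02 (SE 0.113, 95% interval −0.28 to 0.24; limma adjusted p = 0.969), and low library 3 alone lay above all others. Sstr4 (3.77 ± 0.875 against 3.28 ± 0.563 FPKM) and Sstr5 (1.53 ± 0.474 against 1.53 ± 0.728 FPKM; SD, n = 3 each), which encode the other family members, overlapped between the groups. Sstr2 made up 57.1 ± 1.19% of the summed FPKM of the 5 receptor genes among high libraries (range 55.8% to 58.2%), against 54.9 ± 1.24% among low libraries (range 53.7% to 56.2%; SD, n = 3 each). In every library Sstr2 thus stood well above each of the other 4.

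Npy, on chromosome 6 from 49822710 to 49829507, encodes the precursor of neuropeptide Y, a peptide known for stimulating feeding and dampening anxiety. It measured 101, 88.3 and 87.9 FPKM across high libraries 1 to 3, against 66.0, 90.7 and 90.0 FPKM across low libraries 1 to 3. Apart from low library 1, which was the lowest, and high library 1, which was the highest, the other 4 libraries lay within 87.9 to 90.7 FPKM. The difference was 0.18 (SE 0.127, 95% interval −0.11 to 0.47; limma adjusted p = 0.699), and without low library 1 it was 0.029. That library also had the lowest summed level of 7 endothelial and mural markers (56.7 FPKM), and high library 1 had the highest (92.8), with 63.8 to 73.5 in the other 4. Of the sum in high library 1, 26.6 FPKM came from Acta2 alone. Acta2 had 4.25 to 11.1 FPKM elsewhere and was lowest in low library 3. The part of blood vessel RNA in the Npy values was not tested.

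The NPY receptor genes were close to equal in the groups. Npy1r, which encodes the Y1 receptor, measured 6.98, 6.22 and 6.32 FPKM across high libraries 1 to 3, against 6.93, 6.60 and 6.04 FPKM across low libraries 1 to 3. The values of the groups covered almost the same range, and the 95% interval of the difference ran from −0.18 to 0.17 (estimate −0.0038; limma adjusted p = 0.990). Npy2r, which encodes the Y2 receptor, an autoreceptor on NPY terminals, measured 9.72, 6.73 and 10.99 FPKM across high libraries 1 to 3, against 9.30, 9.30 and 8.77 FPKM across low libraries 1 to 3. The high libraries spread far more widely, with an SD of 23.9% of the mean against 3.30% in the low group and a counting error of 4.57%. High library 2 was the lowest and high library 3 the highest of the 6. The Npy2r difference was −0.02 (95% interval −0.36 to 0.32; limma adjusted p = 0.973), and without high library 2 it was 0.16 with an adjusted p of 0.494. Npy5r, the Y5 receptor gene that neighbours Npy1r on chromosome 8, had 1.99 ± 0.597 against 1.84 ± 0.203 FPKM (SD, n = 3 each) and was lowest in high library 2 as well.

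Cck, on chromosome 9 from 121489824 to 121495694, encodes the precursor of cholecystokinin. It measured 145, 164 and 119 FPKM across high libraries 1 to 3, against 123, 114 and 139 FPKM across low libraries 1 to 3. The groups overlapped, since high library 3 lay below low libraries 1 and 3. The difference was 0.17 (SE 0.126, 95% interval −0.12 to 0.46; limma adjusted p = 0.703), falling to 0.067 without high library 2 and reaching 0.30 without high library 3. Cckbr, the gene of the CCK-B receptor, measured 19.4, 21.3 and 15.9 FPKM across high libraries 1 to 3, against 18.9, 18.6 and 22.3 FPKM across low libraries 1 to 3. Low library 3 was the highest and high library 3 the lowest. Its difference was −0.08 (SE 0.114, 95% interval −0.34 to 0.18; limma adjusted p = 0.847). Cckar, the other CCK receptor gene, and Npy4r, Npy6r, Pyy and Ppy of the NPY family were not analysed here.

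**Figure D2:**
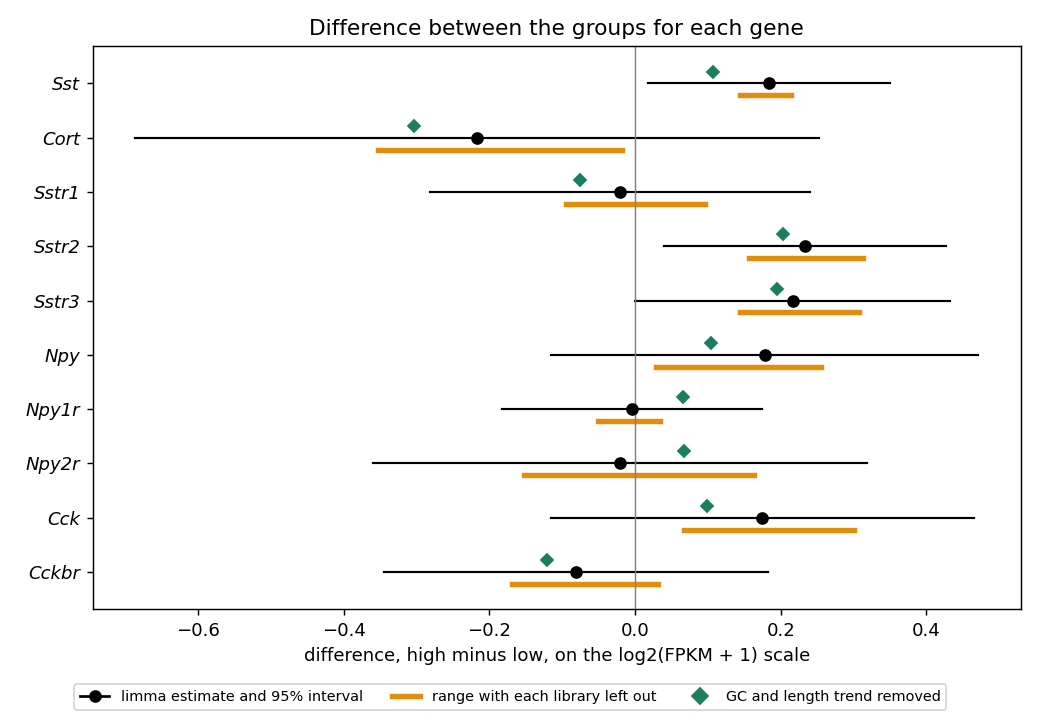
Difference between the groups (high minus low, horizontal axis, log2(FPKM + 1) scale) for each gene: limma estimate and 95% interval (black), range of the estimates with each library left out in turn (orange), and estimate with the trend on GC content and length removed (green). The intervals of Sst, Sstr2 and Sstr3 lie above 0 before correction for the number of genes, and the estimate of Sst falls from 0.18 to 0.11 once the trend is removed.

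The summed FPKM of the 3 main peptide genes, Npy, Sst and Cck, came to 656, 663 and 631 across high libraries 1 to 3, against 569.7, 550.5 and 599 across low libraries 1 to 3, with Sst as the largest part. Proportions between the peptides varied from library to library, from 3.81 to 5.77 for Sst to Npy and from 0.279 to 0.401 for Cck to Sst. The size of the Cck to Sst ratio depends on the length used for Cck. The mean ratio of Sst to Npy was 4.51 ± 0.409 in the high and 4.56 ± 1.06 in the low group (SD, n = 3 each; exact permutation p = 1.0). The ratio of Cck to Sst was 0.345 ± 0.0613 against 0.344 ± 0.0293 (exact permutation p = 1.0, n = 3 each). Npy1r to Npy2r was 0.739 ± 0.175 against 0.715 ± 0.0287 (exact permutation p = 0.8, n = 3 each). These p-values are 2-sided and could not have gone below 0.1, so they say nothing on whether the proportions were equal.

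Several members varied together across libraries in a way that did not follow the groups. Cort and Cckbr had a Pearson r of 0.97 over the 6 libraries, Cort and Sstr1 0.88, and Sstr1 and Cckbr 0.87, and each was lowest or nearly lowest in high library 3 and highest in low library 3. Among the 45 pairs of members 4 had an r above 0.85, these and Sstr2 with Sstr3. They were picked for their high r, and Cort rests on only 19 to 44 fragments per library. The summed level of 10 glutamate neuron markers, most of it from the vesicular transporter gene Slc17a7, came to 277, 354 and 214 FPKM across high libraries 1 to 3, against 283, 252 and 319 FPKM across low libraries 1 to 3. It was thus lowest in high library 3, as were Cort and Cckbr, and highest in high library 2, followed by low library 3. Cck was highest in high library 2 as well (164 FPKM), but lowest in low library 2 (114 FPKM). Of these 10 markers 2 had a higher and 8 a lower mean in the high group, with Neurod1 at 1.55 ± 0.491 against 2.83 ± 0.145 FPKM and Emx1 at 3.00 ± 0.554 against 3.77 ± 0.235 FPKM (SD, n = 3 each). Low library 3 also carried the most choroid plexus RNA, with the markers summing to 4152 FPKM, and the differences of Cort, Sstr1 and Cckbr turned positive (0.13, 0.18 and 0.059) with a choroid plexus score as covariate. The part of the glutamate neuron content in Cort, Sstr1, Cckbr and Cck was not tested.

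**Figure D3:**
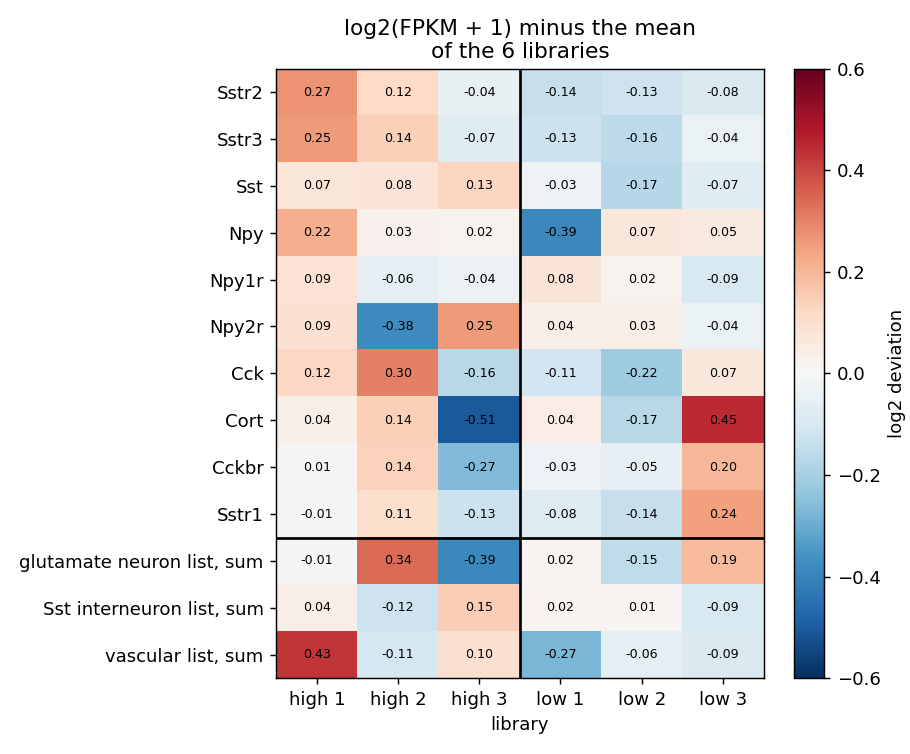
Deviation of log2(FPKM + 1) from the mean of the 6 libraries (colour and printed value) for the 10 genes and for the summed FPKM of 3 marker lists, by library. Sstr2 and Sstr3 share a profile with the highest value in high library 1, while Cort, Cckbr and Sstr1 are highest in low library 3, where the glutamate neuron list is also above its mean.

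Markers of the neurons that make somatostatin did not share a direction. Of 16 tested markers of somatostatin and related GABA neurons, 10 had a higher and 6 a lower mean in the high group, with a median difference of 0.046 and 0 past the test by limma. Their summed FPKM was 248 to 300.2 in the high and 254 to 274 in the low libraries. Those with the smallest p pointed in opposite directions: Calb1, encoding calbindin, had 29.2 ± 3.83 against 38.1 ± 1.25 FPKM, and Nos1, encoding neuronal nitric oxide synthase, had 29.6 ± 2.69 against 22.9 ± 2.44 FPKM (SD, n = 3 each). Gad1, the main GABA-synthesizing enzyme gene, had 53.2 ± 7.85 against 53.9 ± 5.24 FPKM and overlapped. Of 12 tested markers of CCK, VIP and LAMP5 interneurons, 5 were higher and 7 lower (median −0.05), with Calb2, encoding calretinin, at 51.1 ± 9.06 against 36.1 ± 3.27 FPKM and Adarb2 at 2.52 ± 0.307 against 1.997 ± 0.145 FPKM. Of 7 parvalbumin interneuron markers 5 were higher and 2 lower (median 0.087), with the vesicle genes Vamp1 at 11.5 ± 0.273 against 8.997 ± 0.440 FPKM and Syt2 at 2.13 ± 0.597 against 1.31 ± 0.130 FPKM. Pvalb, encoding parvalbumin itself, had 6.11 ± 2.60 against 5.47 ± 1.04 FPKM and overlapped. The groups were separate for Vamp1 and Syt2, as they were for Nos1, Calb2, Adarb2 and, with lower values in the high group, Calb1. Across all tested genes 14.9% had separate groups. No gene of these lists passed after adjustment by limma over all genes, where 2 of each list had an unadjusted p under 0.05. Of all tested genes 8.39% had such a p.

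The marker lists of oligodendrocytes, meninges, ependyma and choroid plexus had means on the same side for every tested member, although no marker passed after adjustment. Their values are given beside the higher Sst and Sstr2 levels of the high libraries. All 8 oligodendrocyte markers had a higher mean in the high group (median 0.19), 4 with an unadjusted p under 0.05, among them Mobp (47.4 ± 1.61 against 38.4 ± 2.33 FPKM) and Mog (12.8 ± 0.842 against 10.1 ± 0.788 FPKM; SD, n = 3 each). Their sum ranged from 376 to 443 FPKM across the high and from 342 to 379 FPKM across the low libraries, so that the groups overlapped. All 6 tested ependyma markers had a lower mean, each with an unadjusted p under 0.05 (median −0.75), with Foxj1 at 1.78 ± 0.247 against 5.51 ± 2.21 FPKM. Their sum of 11.2 to 12.6 FPKM across the high libraries did not overlap the 19.3 to 36.1 FPKM of the low libraries. Within the low group this sum was lowest in library 2 and highest in library 3, as was the choroid plexus sum (81.2 and 4152 FPKM). Of 6 tested hypothalamic markers 5 were higher (median 0.46), with the oxytocin gene Oxt at 2.83 ± 1.94 against 0.550 ± 0.367 FPKM and the transcription factor gene Otp at 2.74 ± 0.886 against 1.40 ± 0.251 FPKM, and the sums ranged from 15.2 to 44.5 against 13.4 to 22.01 FPKM. Oxt reached the mean of 1 FPKM needed for testing only through the high group. Pomc and Nkx2-1 fell below that mean and were lower in the high group. The sum of 44.5 FPKM was that of high library 3, where Avp had 15.8 FPKM, against 3.40 and 3.28 FPKM in high libraries 1 and 2. Vascular markers were higher in 6 of 7 (median 0.18) and meningeal ones in 5 of 5 (median 0.46), whereas all 8 choroid plexus markers were lower (median −1.58). Astrocyte (3 of 8 higher, median −0.03), microglia (4 of 7, median 0.0041), striatal (5 of 8, median 0.16) and hippocampal (1 of 6, median −0.08) markers were mixed or lower. None of these genes passed by limma after adjustment over all genes. An unadjusted limma p under 0.05 was reached by 8.39% of all tested genes. Without low libraries 1 and 3, which carried the choroid plexus RNA, the differences were 0.26 for Sst, 0.24 for Sstr2 and 0.27 for Sstr3, with unadjusted limma p of 0.0835, 0.141 and 0.137. The part of the oligodendrocyte, ependyma and hypothalamic RNA in the results for the peptide systems was not tested.

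The machinery that makes, removes and responds to the peptides showed small differences of either sign. Of 11 tested genes for precursor cleavage, amidation and sulfation, 5 were higher and 6 lower, with a median of −0.03 and 1 unadjusted p under 0.05. That was Cpd, a carboxypeptidase of the secretory pathway, at 8.89 ± 0.711 against 10.5 ± 0.522 FPKM, and Pcsk5, a proprotein convertase, followed at 1.63 ± 0.371 against 2.21 ± 0.323 FPKM (SD, n = 3 each). Of 6 peptidases 3 were higher and 3 lower (median −0.0076), with 0 unadjusted p under 0.05. Tpp2, a peptidase that inactivates cholecystokinin, had 4.11 ± 0.789 against 4.97 ± 0.212 FPKM, and Anpep had 1.94 ± 0.957 against 1.10 ± 0.230 FPKM. Of 10 genes of Gi/o coupling 4 were higher and 6 lower (median −0.09), with Arrb1, encoding an arrestin, at 42.1 ± 1.61 against 37.9 ± 1.28 FPKM and the G-protein subunit gene Gnai3 at 8.66 ± 0.722 against 10.1 ± 0.700 FPKM. Of 6 genes of Gq coupling 2 were higher and 4 lower (median −0.0076), none with an unadjusted p under 0.05. Among 11 genes induced by activity and cAMP, 7 were higher and 4 lower (median 0.019), with the granin gene Vgf at 112 ± 9.25 against 90.6 ± 6.85 FPKM and Junb at 19.9 ± 3.31 against 22.7 ± 2.54 FPKM. Across these 5 lists limma called 0 genes after adjustment over all genes, and 4 had an unadjusted p under 0.05. Of all tested genes 8.39% had such a p.

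The difference between the groups followed base composition and transcript length over all genes, which bears on the members unequally. Its Spearman rho was 0.401 with transcript GC content and −0.240 with transcript length across 11924 tested genes. These genes are not independent replicates. The transcripts of Sst (56.0% GC), Sstr2 (53.1%), Sstr3 (57.0%), Cck (56.9%) and Npy (53.7%) lie above the median of 50.7%, as do Cort, Sstr1 and Cckbr, whereas Npy1r (43.3%) and Npy2r (42.5%) lie below. The longest protein-coding transcripts of Npy, Cort, Sst and Cck had 566 to 799 bases, and those of the other members 2014 to 4275 bases. GC content and length were removed together, so their parts cannot be told apart. Once a spline on GC content and length had been subtracted per library, the difference was 0.11 for Sst, with an unadjusted limma p of 0.157. It was 0.20 for Sstr2 and 0.19 for Sstr3, with unadjusted limma p of 0.0336 and 0.0386. The corresponding values were 0.10 for Npy and 0.098 for Cck, and 0.066 and 0.068 for Npy1r and Npy2r. For Cort, Sstr1 and Cckbr they were −0.30, −0.076 and −0.12, against −0.22, −0.02 and −0.08 in the main fit.

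**Figure D4:**
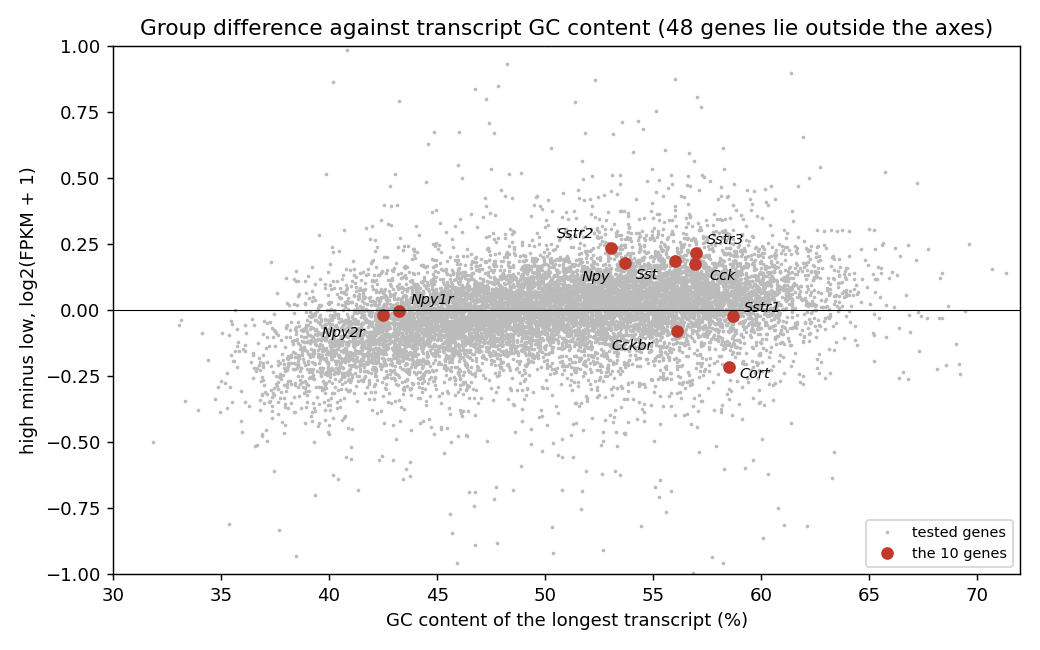
Difference between the groups (vertical axis, log2(FPKM + 1) scale) against GC content of the longest transcript (horizontal axis, %) for all tested genes (grey) and the 10 genes (red). The cloud tilts upward with GC content (rho 0.401), and Npy1r and Npy2r are the members at its low-GC end.

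The genes whose log2 values were most like those of the main peptides over the 6 libraries were taken from 11658 other tested genes, so that a high r is easily reached. For Sst these were Ifitm10 (r = 0.997), B3galt6 (0.990) and Rpp25 (0.988), and for Npy they were Tmem86b (0.991), Flt1 (0.983) and Lrrc32 (0.981). Flt1 encodes a VEGF receptor of endothelium and is among the vascular markers. For Cck they were Mthfd1l, Pkm and Pfn1 (0.997, 0.995 and 0.995).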

How the data were processed

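The authors deposited FPKM values, with a column for each library. Tools named in the submitters' processing notes are fastp, HISAT2 and StringTie, and the build is GRCm38; versions and settings are not given there. The authors' deposited log2 fold changes and unadjusted p-values were not used for any result. After a filter on mean FPKM (1 or more), log2(FPKM + 1) values of the high and low libraries entered a limma fit (version 3.58.1, R 4.3.3) with a variance trend. Tests were 2-sided, and p-values were adjusted by Benjamini-Hochberg over all 12026 genes, with a threshold of 0.05. The procedure was tested on simulated data. Ratios of genes within libraries were compared by exact permutation tests.

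Fragment counts were recovered from the deposited FPKM. The most common exact ratio between libraries among low genes gave their relative depth, after which 13143 of 13170 genes (99.8%) came out as whole numbers in all 6 libraries within a tolerance of 0.001. The gene length this implied equalled the exon union of GENCODE M21 for 11953 of 13028 genes with one (91.7%), all 10 members among them. Voom from limma was run on these counts as an alternative added after seeing the data. The other alternatives were pseudocounts, filters, scalings, variance models, array weights, the replicate number as a block, removal of a GC and length trend, a choroid plexus score as covariate and libraries left out.

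The members and gene lists were chosen with earlier results of these data known. Named genes are the members, up to 2 genes per list with the smallest p, and the 3 genes most like Npy, Sst and Cck. Gad1, Pvalb, Slc17a7, Slc39a11 and the other family members were named after their values were seen. Not every gene the rule takes is described. Promoters are from RefSeq (GRCm38.p6), gene positions and transcripts from GENCODE M21. Python 3.11.15, numpy 2.4.6, pandas 2.3.3 and matplotlib 3.10.9 were used for the other steps.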

Additional observations from a re-analysis of the deposited data

How the results depend on the processing

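By limma 0 genes, 0 members and 0 genes of the family and pathway lists were called under all 21 alternatives, while the number of genes with an unadjusted p under 0.05 ran from 361 to 1567. The number of members with an unadjusted p under 0.05 (3) was 1 with the replicate block and 0 with the choroid plexus score as covariate. With that covariate the differences of Sst, Sstr2 and Sstr3 were larger than in the main fit (0.24, 0.26 and 0.29). Their unadjusted limma p was 0.0526 to 0.0682. The score was highest in low libraries 1 and 3, so it overlaps with the group label. With each library left out the count was 0 to 3: 0 without high library 1 or low library 2, and 1 without low library 1 or low library 3. Without high library 3 the 3 members were Sstr2, Sstr3 and Cck. The differences of Sst, Sstr2, Sstr3, Npy and Cck were above 0 under every alternative run, in ranges of 0.11 to 0.26, 0.16 to 0.31, 0.14 to 0.31, 0.023 to 0.29 and 0.067 to 0.34, and by voom on recovered counts they were 0.18, 0.24, 0.25, 0.17 and 0.18. The difference of Npy1r changed sign with median scaling (0.0075), quantile normalization (0.012), array weights (0.0090) and the GC and length trend removed (0.066), and that of Npy2r with array weights (0.059) and the GC and length trend removed (0.068). With the choroid plexus score as covariate, Cort (0.13), Sstr1 (0.18) and Cckbr (0.059) changed sign, as they did without low libraries 1 and 3 (0.057, 0.13 and 0.0066), a fit in which the lone low library is assumed to vary like the high ones. With each library left out, the difference ran from −0.051 to 0.035 for Npy1r, −0.15 to 0.16 for Npy2r, −0.35 to −0.02 for Cort, −0.095 to 0.097 for Sstr1 and −0.17 to 0.032 for Cckbr. The log2 difference of the ratio ran from −0.11 to 0.19 for Sst to Npy, −0.15 to 0.19 for Npy1r to Npy2r and −0.13 to 0.14 for Cck to Sst. The cause was not tested. A filter at a mean FPKM of 5 left out Cort and so gave no value for it. The replicate numbers are only names: the deviations of same-numbered libraries from their group means correlated at −0.09, −0.21 and −0.16. Depth limits Cort most (19 to 44 fragments per library), although its spread between libraries (30.5% and 28.6%) exceeded its counting error (17.6%).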

Other observations

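The deposited FPKM carry the fragment counts in full for nearly all genes. Over the 10 members the mean count per library ran from 32.3 for Cort to 4400.3 for Sst, with 2751 for Cck, 887 for Sstr2, 868 for Cckbr and 776 for Npy. Counting error was smaller than the spread between libraries of the high group in all 10 members. In the low group it was larger than that spread for Sstr2 (3.36% against 2.06%) and Npy2r (4.57% against 3.30%). An SD over 3 libraries is itself imprecise, and the counting error assumes that fragments are independent molecules.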
